A study of Drosophila melanogaster with 39 samples.

Results

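Amalgam (Ama, gene CG2198) was followed on every array of a study of transdetermination, the switch of leg disc cells of Drosophila melanogaster larvae to a wing fate. All probes of the gene were taken, with letter suffixes of probe names ignored, and this gave 1 probe among 16361 gene probes. The gene was chosen by its measured ratios in transdetermining (TD) cells, which are high over both dorsal and ventral cells of such discs. Its values in the comparisons of TD cells are therefore given as a description, with no test. The probe held a value on 37 of 39 arrays, and both missing values were in regenerating fragments.

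Amalgam is a secreted adhesion protein of the immunoglobulin superfamily. It is a ligand of Neurotactin (Nrt), a transmembrane adhesion protein of the same animal, and cells that carry Neurotactin stick together when Amalgam is present. In the fly embryo both proteins act with the tyrosine kinase Abl in the outgrowth of axons. The gene lies in the Antennapedia complex, the cluster of homeotic genes that set the identity of head and thorax segments, between bicoid (bcd) and Deformed (Dfd).

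Every array compared 2 amplified RNA samples, and each value is a log2 ratio, with the first-named sample on top, set to a median of 0 on each array. The Wg stock carried the markers y and w, the flippase hs-flp, the driver vgBE-GAL4 with the reporter UASGFP, and the elements Actinc5, FRT y+, FRT and wg+. In it the signalling protein Wingless (Wg) was switched on in most disc cells by heat shocks at 60 and 72 h after egg deposition. First leg discs were taken 3 days later, and per the labels such larvae pupariate late. TD cells were cut out by the green fluorescence driven by the boundary enhancer of the wing gene vestigial (vg), D(wg) was the dorsal remainder without fluorescence, and V(wg) the ventral part. TD was set against D(wg) on 3 arrays and against V(wg) on 5, and D(wg) against V(wg) on 3, each with fragments pooled from 4 to 8 discs. TD was also set against D(wt), the dorsal part of wild-type discs, on 2 arrays. Intact Wg discs were set against a leg reference on 6 arrays, which was pooled amplified RNA of wild-type leg discs of all 3 thoracic segments and both sexes. The wild-type discs came from OregonR larvae. D(wt) was set against the ventral part V(wt) on 3 arrays, single first leg discs against the reference on 4, and wing discs against leg discs from the same larvae on 9, with 3 for each leg segment. Regenerating tissue, 3/4 fragments of second leg discs kept 3 to 5 days in adult female abdomens, was set against the reference on 4 arrays. The labels give no heat shock for wild-type samples, so Wg, heat shock, stock and age cannot be told apart wherever a Wg sample meets a wild-type one.

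Of the gene probes, 18.2 to 89.5 percent had a value on an array, and precision is limited by how many arrays there are. The labels do not say whether extracts were shared between arrays, so the p-values measure the spread between these arrays. Slide series here means the prefix of the slide number in an array's title, and reading it as a series was inferred. The vg reporter gene checked the dissection: vg was higher in TD cells than in D(wg), by 3.76 ± 0.77 (SE, n = 2 arrays with a value), and higher than in V(wg) cells by 3.59 ± 0.56. Over D(wg) it did not pass the test when the spread of arrays was scaled (limma, adjusted p = 0.0784). Of the 4 wing identity genes tested (vg, sd, ap and nub), vg was the 1 that passed as higher in each comparison, beside 10.4 and 6.9 percent of all probes. The medians of the 4 were 0.14 and 0.05, and their lowest ratios -0.36 and -0.05. The 2 arrays of TD against D(wt) went against their labels for several genes. Read as labelled, vg lay at -1.73 and -1.77 there and a probe of wg itself at -5.63 and -3.74. The wg probe CG4889 had no value on the first array and lay at -0.27 on the second. In Wg discs over the reference the means of these wg probes were 1.37 and, for CG4889, -0.64. The eye colour gene white (w) lay at -6.90 and -6.58, and Ilp8, upd1, Spn47C and Cyp18a1, which were high in Wg discs or TD cells elsewhere, were also below 0 on both. White and the last 4 genes were looked up after their values were seen. Of the 50 probes highest in Wg discs over the reference, 45 were below 0 on these arrays, and over all probes r between the comparisons was -0.55. The same counts were 41 of 50 for TD over V(wg), with an r of -0.26, and 26 of 50 for TD over D(wg), with an r of 0.0091. Of the 50 lowest probes, 41, 39 and 38 were above 0 on these arrays for Wg discs, TD over V(wg) and TD over D(wg). On both arrays vg, white, Ilp8, upd1, Spn47C and Cyp18a1 thus lay opposite to their direction in Wg discs or TD cells elsewhere. Both arrays have the same dye orientation, so no swapped array is there to check their direction. Ama is given there with both signs.

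Ama was higher in TD cells than in either neighbouring part of the same discs. In TD against D(wg) its log2 ratios on the 3 arrays were 2.35, 3.02 and 2.30. All lay far above 0, and on each array Ama stood at or above the 99.7 percentile of all probes. The fitted ratio was 2.56 ± 0.25 (SE, n = 3), which is 5.90-fold. Ama ranked 8 from the top of 9189 probes measured in this comparison.

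In TD against V(wg) the 5 arrays gave 2.92, 2.75, 1.93, 1.86 and 2.39. All lay above every Ama value outside the TD comparisons, the highest of which was 1.23. This fits a ratio of 2.37 ± 0.19 (SE, n = 5), which is 5.17-fold, and Ama ranked 20 of 8716 probes. In pooled pieces of tissue, more cells with the transcript and more transcript per cell cannot be told apart. Only 6 other probes, of 4 genes and with 3 of them for the insulin-like peptide gene Ilp8, reached both of Ama's ratios among the 8188 probes tested in both comparisons. A ratio of at least 2 in both was reached by 13 probes, with Ama among them. The choice of Ama used these values, so they do not support it further.

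**Figure D1:**
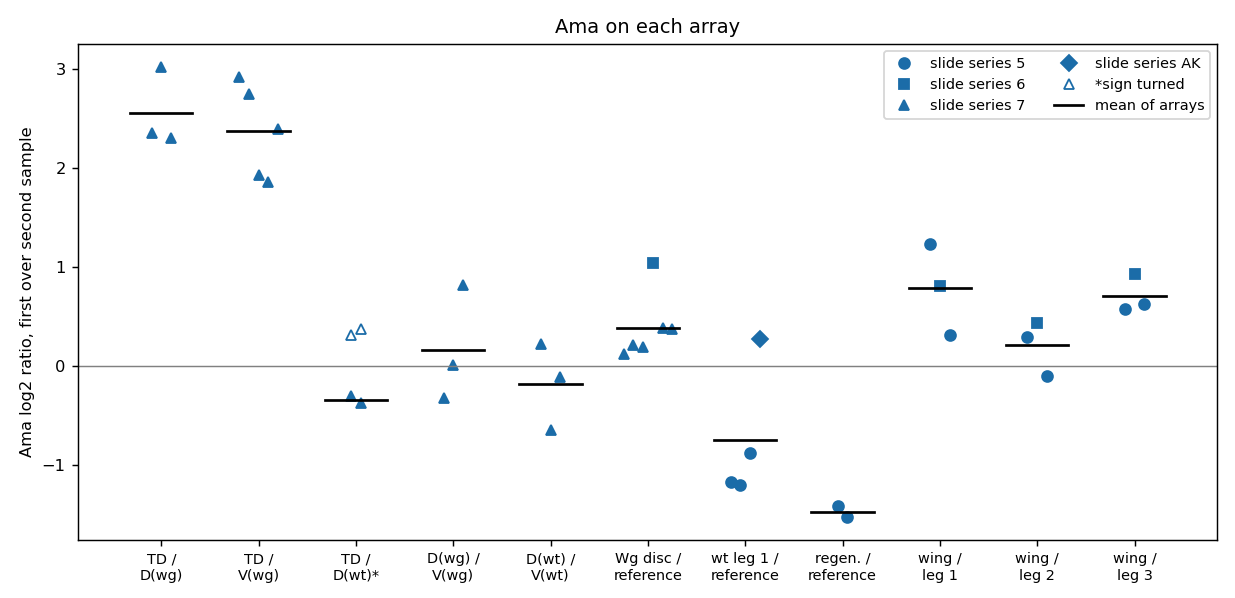
Ama on each array, as the log2 ratio with the first-named sample on top (vertical axis) by comparison (horizontal axis), with markers for the slide series, bars for the mean of the arrays, and open markers for TD over D(wt) with the sign turned. The 8 arrays of TD over D(wg) or V(wg) lie between 1.86 and 3.02, and all others lie at or below 1.23.

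The arrays of TD against D(wt) did not show a difference of that size in either direction. As labelled, Ama was at -0.31 and -0.38, and with the sign turned at 0.31 and 0.38. The fitted ratio was -0.35 ± 0.31 (SE, n = 2) as labelled and 0.33 turned. Its distance from 0 is small beside 2.56 and 2.37 whichever sign is right.

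Between dorsal and ventral cells no difference of Ama passed the test. In D(wg) against V(wg) the arrays gave -0.33, 0.00 and 0.81, so they lay on both sides of 0. The fitted ratio was 0.16 ± 0.25 (SE, n = 3; limma, adjusted p = 0.727), with a 95 percent interval of -0.35 to 0.67. The share of all probes called in this comparison was 0.266 percent at an adjusted p under 0.05. In D(wt) against V(wt) the arrays gave 0.22, -0.65 and -0.12, again on both sides of 0. Their fit gave -0.18 ± 0.25 (SE, n = 3; limma, adjusted p = 1), where 0.694 percent of probes were called. The dorsal over ventral ratio was 0.34 ± 0.35 higher in Wg than in wild-type discs, with a 95 percent interval of -0.38 to 1.06 (limma, adjusted p = 0.723), where 0.115 percent of probes were called. With 1 array left out this difference lay at 0.023 to 0.62.

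The TD comparisons also bear on each other through the shared TD cells. TD over V(wg) minus TD over D(wg) was -0.19 for Ama, beside 0.16 measured directly in D(wg) over V(wg). The first of these values comes from the ratios by which Ama was chosen and is given as a description. The path through D(wt) gives another picture. TD lay near D(wt), at -0.35 or 0.33, and far above D(wg) and V(wg), which places both Wg parts below D(wt). Intact Wg discs, though, stood 1.14 ± 0.28 above wild-type first leg discs, as given below, and D(wt) over V(wt) was -0.18. These values conflict, and the cause was not tested.

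In intact Wg discs the difference of Ama from the reference did not pass the test. Wg discs over the leg reference gave 0.12, 0.21, 0.19, 1.04, 0.38 and 0.37. All 6 lay above 0, with 5 of them at or below 0.38. The 1 array at 1.04 was the only one of these on slide series 6. Over the 6, the fit gave 0.38 ± 0.17 (SE, n = 6), which is 1.31-fold (limma, adjusted p = 0.118). In this comparison 21.1 percent of probes were called, 10.1 percent as higher and 11 percent as lower. Without the array at 1.04 the ratio was 0.25. Of 9 myoblast markers tested here 1 was higher (rols, 0.49, with its other probes at -0.11 and -0.19) and 4 were lower (Him, stumps, Mef2 and how, between -1.40 and -0.77). The blood cell marker crq was higher (0.78, 1 of 4 tested), and gcm of the glia and neuron markers (-0.89, 1 of 8) and the tracheal marker serp (-0.65, 1 of 4) were lower. Other probes of serp, at -0.37 and -0.18, did not pass. These counts take 1 probe per gene, and another probe of the glia and neuron marker nrv2 passed as lower (-0.53, limma, adjusted p = 0.0239). Single arrays left out ended the calls of Mef2, how, gcm and serp, and the part of these cells in the Ama value was not tested.

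Wild-type first leg discs held less Ama than the reference of all leg discs. Their 4 arrays gave -1.18, -1.20, -0.88 and 0.27. The first 3 were of slide series 5 and share a dye orientation, and the array at 0.27 was the only one of slide series AK and of the opposite orientation. The fitted ratio was -0.75 ± 0.22 (SE, n = 4), which is 0.593-fold (limma, adjusted p = 0.0193), where 17.8 percent of probes were called, 7.77 percent as higher and 10.1 percent as lower. The call was lost without replicate 1 (-0.61), replicate 2 (-0.60) or replicate 3 (-0.71), and without the AK array the ratio was -1.17, with an adjusted p of 0.00111. Genes of the larval fat body moved with this comparison: 4 of 4 tested passed as lower, with a median of -3.16 and the larval serum protein gene Lsp1gamma at -4.01 ± 0.17. Of the blood cell markers crq was higher (0.80, 1 of 2 tested), of the glia and neuron markers nrv2 was higher (0.59, 1 of 7), of the tracheal markers pio was lower (-1.75, 1 of 3), and of 7 myoblast markers none was called by limma (2 at an unadjusted p under 0.05). Each of these 3 calls was lost without replicate 1 or 2. These counts take 1 probe per gene. On other probes the myoblast marker sns passed in opposite directions (CG12495 0.59 and CG13752 -0.42, limma, adjusted p = 0.0178 and 0.0414). The tracheal marker verm passed as lower on CG8756h (-0.80, limma, adjusted p = 0.0226) but not on CG8756g (-0.55). The pio probes CG3541a (-1.44) and CG3541c (-1.47) passed as lower too. The part of these cells in the Ama value was not tested.

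Through the reference, Wg discs held more Ama than wild-type first leg discs. The 6 Wg arrays above lay between 0.12 and 1.04, and the 4 wild-type arrays between -1.20 and 0.27, so the groups overlapped by the AK array. The difference was 1.14 ± 0.28 (SE, n = 6 and 4), which is 2.201-fold (limma, adjusted p = 0.0131), where 6.64 percent of probes were called, 3.5 percent as higher and 3.14 percent as lower. It passed with the arrays of slide series 7 and 5 alone (1.41), but not without wild-type replicate 1 (1.00) or 2 (0.99). No slide series held both kinds of disc, so slide series and disc type cannot be told apart here. Fat body genes moved with it too, with 3 of 4 tested higher in Wg discs and a median of 3.13. The myoblast marker Him, 1 of 7 tested, was lower, at -1.07 ± 0.24 (limma, adjusted p = 0.00979). These counts take 1 probe per gene. Another probe of the myoblast marker sns passed as lower (CG12495, -0.66, limma, adjusted p = 0.0490), while CG13752 (0.17) and CG13754c (0.02) did not pass. The part of either kind of cell was not tested.

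Regenerating fragments gave the lowest Ama values of the series. The probe held a value on 2 of 4 arrays, at -1.42 and -1.53 over the reference. Both lay below every other Ama value. With 2 arrays short of a value the ratio of -1.48 ± 0.30 was not tested. In the same fit, regenerating fragments were at -0.72 ± 0.37 over wild-type first leg discs, and Wg discs at 1.86 ± 0.35 over regenerating fragments, likewise with no test. Without the wild-type AK array the value over wild-type first leg discs was -0.31. These fragments came from second leg discs, and the other leg samples compared with them from first leg discs. Markers of other cells moved with them. Over the reference the myoblast marker Mef2 (1.68, 1 of 5 tested) and the blood cell marker crq (0.90, the 1 tested) were higher. There 40.6 percent of all probes were called, and of 3229 named genes 511 were higher and 835 lower. On another probe the tracheal marker verm passed as higher (CG8756h 0.59, limma, adjusted p = 0.0453), but not on CG8756g (0.47). Over wild-type first leg discs Mef2 (2.05) and the myoblast marker sns (0.64) were higher, 2 of 5 tested, with the lowest at -0.32. So was verm (1.03, 1 of 2 tracheal markers tested). There 19.7 percent of probes were called, and of 3195 named genes 193 were higher and 470 lower. Other verm probes passed too (1.02 and 1.39), and sns probe CG13752 (0.33) did not. Calls were lost in some alternatives, at most for verm (9 of 12) and sns (7 of 12), and the part of these cells in the Ama values was not tested.

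Wing discs held more Ama than leg discs of the same larva. Against first leg discs the arrays gave 1.23, 0.81 and 0.31, against second leg discs 0.29, 0.43 and -0.10, and against the third leg discs 0.57, 0.92 and 0.62. Of the 9 arrays, 8 lay above 0. The fitted ratio over all 9 was 0.57 ± 0.14 (SE), which is 1.48-fold (limma, adjusted p = 0.0137), where 4.5 percent of probes were called, 2.53 percent as higher and 1.97 percent as lower. The call rests on most of the arrays being used together. It was lost without replicate 1 against first leg (0.49), replicate 2 against second leg (0.53) or replicate 2 against the third leg (0.53), and within slide series 5 (0.49, limma, adjusted p = 0.206) or slide series 6 (0.74, limma, adjusted p = 0.146) alone. By dye orientation the ratio was 0.75 with wing as probe 1 and 0.30 with wing as probe 2, and neither passed.

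By segment, the wing over leg ratio of Ama was 0.79 for first legs, 0.20 for second legs and 0.71 for the third legs, each ± 0.25 (SE, n = 3). Read through the wing disc, first legs stood at -0.58 ± 0.35 over second legs, first legs at -0.08 ± 0.35 over the third legs, and second legs at 0.51 ± 0.35 over the third legs. None passed the test (limma, adjusted p = 1.00 for each, where limma called 0.014, 0 and 0 percent of probes, while 81, 56 and 59 had an unadjusted p under 0.05). Neighbours in this order do not differ beyond their spread.

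**Figure D2:**
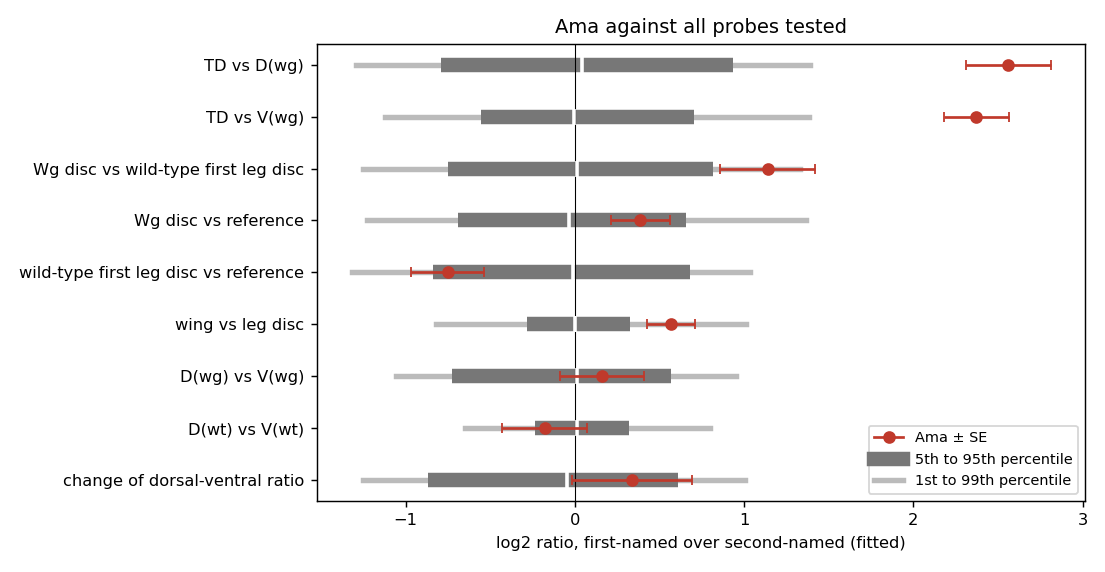
Ama against all probes tested in each comparison, as fitted log2 ratios (horizontal axis) with bars for the 5th to 95th and lines for the 1st to 99th percentile of probes, and Ama with its SE. Ama lies beyond the 99th percentile in TD over D(wg) and TD over V(wg) (2.56 and 2.37, against 99th percentiles of 1.39 and 1.38) and within the 1st to 99th percentile in the others drawn.

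Nrt, the gene of the Amalgam receptor, had ratios opposite in sign to those of Ama in several comparisons. The array carries 4 Nrt probes, and CG9704f, which had a value on all 39 arrays, stands for the gene. In TD against D(wg) it lay at -1.08, -1.30 and -1.30. These 3 arrays are all below 0, while Ama was above 2 on each. The fitted Nrt ratio was -1.20 ± 0.20 (SE, n = 3; limma, adjusted p = 0.000639), where 17.8 percent of all probes were called, 10.4 percent as higher and 7.45 percent as lower. In TD against V(wg) this probe gave -0.38, -0.59, -1.10, -0.40 and -0.83, all below 0. The fitted ratio was -0.64 ± 0.16 (SE, n = 5; limma, adjusted p = 0.00584), where 13.4 percent of probes were called, 6.9 percent as higher and 6.54 percent as lower.

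The 4 Nrt probes shared the sign but not the size of these ratios. In TD against D(wg) they lay between -1.20 and -0.38 and in TD against V(wg) between -0.64 and -0.13. All 4 were below 0 in both comparisons, and only CG9704f passed the test. The fall of Nrt therefore rests on 1 of 4 probes.

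In wild-type first leg discs and regenerating fragments, where Ama was low over the reference, Nrt probe CG9704f was high. In wild-type first leg discs over the reference, CG9704f gave 0.86, 1.89, 0.44 and 0.53, all above 0. Its fitted ratio was 0.89 ± 0.18 (SE, n = 4; limma, adjusted p = 0.00200), and 1 of 4 Nrt probes passed, with all 4 above 0. There 17.8 percent of all probes were called, 7.77 percent as higher. On the AK array both genes were above 0, Ama at 0.27 and Nrt at 0.53. In regenerating fragments over the reference it gave 1.24, 1.21, 1.02 and 1.06. Fitted, this was 1.13 ± 0.17 (SE, n = 4; limma, adjusted p = 8.89e-06), and all 4 Nrt probes passed, between 0.55 and 1.13. There 40.6 percent of all probes were called, and of 3229 named genes 511 were higher and 835 lower. Wg discs over wild-type first leg discs stood at -0.99 ± 0.23 for Nrt (limma, adjusted p = 0.00818), with 1 of 4 probes called and all 4 below 0. The Nrt call was lost without wild-type replicate 2. In this comparison 6.64 percent of all probes were called, 3.14 percent as lower. Wg discs over regenerating fragments stood at -1.23 ± 0.23 for Nrt (limma, adjusted p = 0.000184), with all 4 probes called, between -1.23 and -0.56. There 27.1 percent of all probes were called, and of 3218 named genes 617 were higher and 281 lower.

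In the comparisons not yet given for Nrt it did not pass the test on any probe. CG9704f was at -0.10 ± 0.14 in Wg discs over the reference, 0.14 ± 0.12 in wing over leg discs, 0.15 ± 0.20 in D(wg) over V(wg) and 0.58 ± 0.20 in D(wt) over V(wt). In wing over leg discs, where Ama was higher, the 4 Nrt probes lay between -0.04 and 0.14. Over the 37 arrays with both values, Ama and CG9704f had a Pearson r of -0.82 and a Spearman rho of -0.75, and the other 3 Nrt probes had an r of -0.73 to -0.63 with Ama. Outside the TD comparisons r was -0.67 over 27 arrays, and for deviations from the mean of each comparison it was -0.13. Ama and CG9704f had opposite signs on 25 of the 37 arrays, and on 15 of the 27 outside the TD comparisons. The arrays share reference RNA and kinds of tissue, so these values describe the set of comparisons and not variation between like samples.

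**Figure D3:**
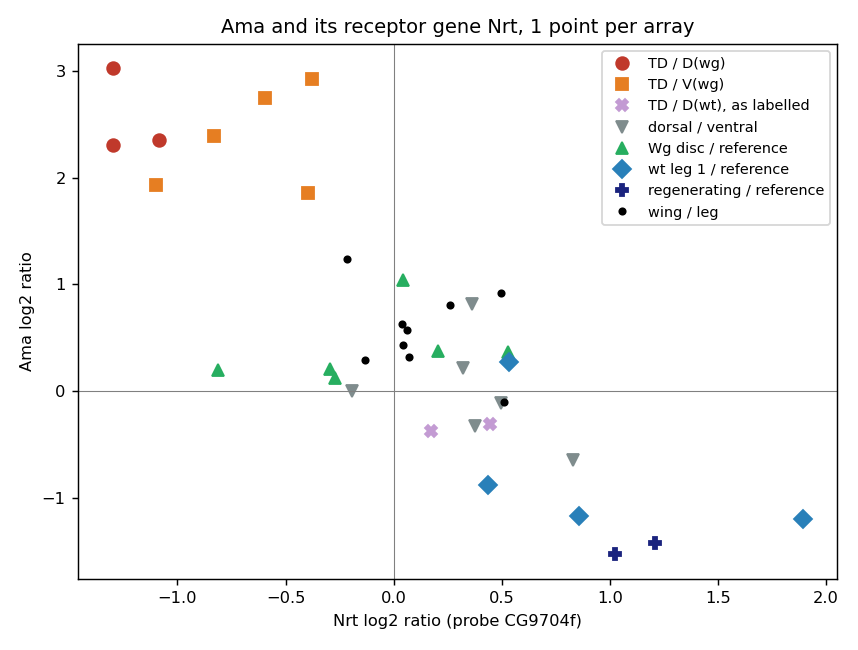
Ama (vertical axis) against Nrt probe CG9704f (horizontal axis), both as log2 ratios, with 1 point for each of 37 arrays and a marker for each comparison. The 8 arrays of TD over D(wg) or V(wg) lie at upper left, and the 2 regenerating arrays and 3 of 4 wild-type leg arrays lie at lower right.

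The Abl pathway list holds Nrt, the kinase gene Abl, its antagonist enabled (ena), the adaptor gene Disabled (Dab), failed axon connections (fax), the exchange factor gene trio and the beta-catenin gene armadillo (arm). In TD against D(wg) 5 of 7 were tested, 0 passed as higher and 1, Nrt, as lower, with a median of -0.11 beside 0.05 over 7066 named genes, and 10.4 percent of all probes were higher and 7.45 percent lower. In TD against V(wg) 6 were tested, with 0 higher, Nrt again the 1 lower, and a median of -0.05 beside -0.01 over 6840 named genes, and 6.9 percent of all probes were higher and 6.54 percent lower. Ratios of ena were 0.21 ± 0.12 over D(wg) and 0.23 ± 0.11 over V(wg), those of trio 0.34 ± 0.32 and 0.17 ± 0.25, and those of fax -0.78 ± 0.47 and -0.16 ± 0.36. Those of arm were -0.11 ± 0.27 and -0.42 ± 0.21, and Abl, measured only against V(wg), was at 0.05 ± 0.14. Elsewhere ena was lower in wild-type leg discs than in the reference (-0.52 ± 0.12, limma, adjusted p = 0.0117; the call was lost without replicate 1 or 2, and another probe was at -0.19 and did not pass) and Dab lower in Wg discs than in the reference (-0.64 ± 0.21, limma, adjusted p = 0.0481; the call was lost without replicate 1, 2, 3 or 5).

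The genes that share the Antennapedia complex with Ama did not pass the test in TD cells. Of 17 listed members 7 were tested against D(wg), with 0 higher and 0 lower by limma (1 at an unadjusted p under 0.05), a median of -0.11 and a range of -0.78 to 0.03, where 17.8 percent of all probes were called. Against V(wg) 8 were tested, with 0 higher and 0 lower by limma (0 at an unadjusted p under 0.05), a median of -0.02 and a range of -0.17 to 0.07, where 13.4 percent were called. With so few members tested, counts of 0 say little beside these shares. The leg homeotic genes Antp and Scr were at -0.11 ± 0.39 and -0.04 ± 0.24 over D(wg), and at 0.07 ± 0.27 and -0.17 ± 0.18 over V(wg). The neighbours bcd, Dfd, zen and zen2 had too few values to be tested. Of the cuticle protein genes of the complex, Ccp84Aa and Ccp84Ad had the lowest ratios over D(wg), at -0.75 ± 0.45 and -0.78 ± 0.38.

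In wing over leg discs, where Ama was higher, 4 members of the complex were tested, with 0 higher and 3 lower, beside 2.53 and 1.97 percent of all probes. Those were Ccp84Aa (-1.81 ± 0.32, limma, adjusted p = 0.000592), Ccp84Ad (-1.54 ± 0.26) and Scr (-0.52 ± 0.15). Scr lost its call without any one of 4 single arrays. Antp, at 0.07 ± 0.22, did not pass. In wild-type leg discs over the reference and in Wg over wild-type leg discs, 7 members were tested, and limma called 0 in either (1 and 0 at an unadjusted p under 0.05), where 17.8 and 6.64 percent of all probes were called. Antp was higher in regenerating fragments than in the reference, at 1.32 ± 0.32 (limma, adjusted p = 0.00222), and lost that call without replicate 3 and with scaled spread (0.76). It was the 1 member tested there, where 511 of 3229 named genes were higher and 835 lower.

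Other immunoglobulin superfamily genes for cell adhesion had ratios of at most 0.80 over D(wg) and 0.62 over V(wg) where tested. Of 72 listed genes 35 were tested against D(wg), with 3 higher, 1 lower, a median of -0.09 and a highest ratio of 0.80. Over all probes 10.4 percent were higher and 7.45 percent lower, so the members' counts are no higher than that background. The highest was fred, of a neighbour and relative of the adhesion gene echinoid, at 0.80 ± 0.21 on 2 arrays, and it lost its call with the comparison's own arrays alone. Another, dpr18, of a family of neuronal surface receptors, was at 0.48 ± 0.14 and lost its call without replicate 2 or 3. The third, dpr4, lost its call under all 5 alternatives that could be run. The lowest was fipi, needed in neurons for courtship song, at -1.31 ± 0.22 (limma, adjusted p = 0.00122). Against V(wg) 39 were tested, with babos higher (0.62 ± 0.14, lost with the comparison's own arrays alone, adjusted p = 0.0636) and fipi lower (-1.43 ± 0.14, limma, adjusted p = 1.20e-06), and the next by p, dpr12, was at -0.26 ± 0.10 and did not pass. The median was -0.09, and over all probes 6.9 percent were higher and 6.54 percent lower.

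Outside TD cells single members of this list passed in either direction. In Wg over wild-type leg discs 31 were tested, with dpr18 higher (0.61 ± 0.16) and fipi lower (-0.81 ± 0.22), beside 3.5 and 3.14 percent of all probes. The call of dpr18 was lost in 7 of 14 alternatives, 5 of which leave out a single array (wild-type replicate 2 or 3, or Wg replicate 1, 5 or 6). The call of fipi was lost in 3 of 14, with scaled spread and without wild-type replicate 1 or 2. In wing over leg discs 16 were tested, with 0 higher and 1 lower, beside 2.53 and 1.97 percent of all probes. The lower one was wrapper, which encodes a protein of axon-wrapping glia, at -4.30 ± 0.25 (limma, adjusted p = 1.23e-11). In Wg discs over the reference 53 were tested with 5 higher and 8 lower, beside 10.1 and 11 percent of all probes, and the smallest p-values belonged to tutl (-0.64 ± 0.08, with another probe at -0.25 that did not pass), dpr15 (0.67 ± 0.13) and Nrg (-0.77 ± 0.12).

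Of 16 other adhesion genes, 12 were tested against D(wg), with 2 higher and 1 lower, beside 10.4 and 7.45 percent of all probes. The integrin gene inflated (if) was at 1.24 and lost its call with scaled spread (adjusted p = 0.163) and with the comparison's own arrays alone (adjusted p = 0.0812), and its other tested probe was at 0.64 and did not pass (limma, adjusted p = 0.265). Cad99C, a cadherin gene, was at -1.34. The E-cadherin gene shotgun (shg) was at 1.54 on its probe with the most values, but its other probes were at 0.92 and -1.47, and it lost its call without any of the 3 arrays. Against V(wg) 9 were tested, with dachsous (ds) higher (0.97, lost with the comparison's own arrays alone) and Cad99C lower (-0.89), beside 6.9 and 6.54 percent of all probes. Ama's ratios of 2.56 and 2.37 lay above every tested gene of these lists. Ama was chosen for these ratios, so its place above the lists is no separate result.

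**Figure D4:**
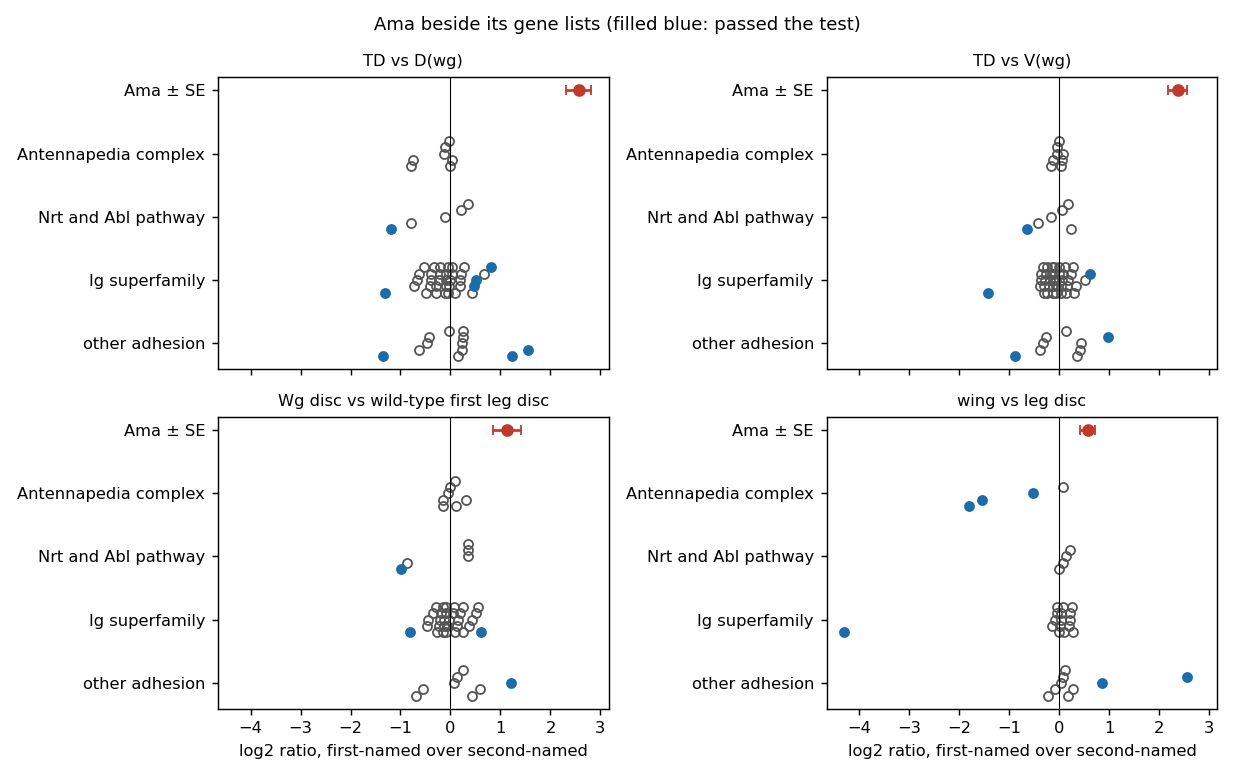
Ama with its SE and the tested members of 4 gene lists in 4 comparisons, as fitted log2 ratios on the horizontal axis, with filled points for members that passed the test. In both TD comparisons, by which it was chosen, Ama lies right of every list member, and in wing over leg discs inflated (2.56) and dachsous (0.86) lie right of it at 0.57.

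Markers of other cell types were set beside Ama in the TD comparisons, where 7.45 percent of all probes were called lower against D(wg) and 6.54 percent against V(wg). Of the myoblast markers 7 were tested against D(wg) and 8 against V(wg), with 0 higher and 1 lower in each, zfh1, at -0.56 and -0.58, and with ranges of -0.56 to 0.57 and -0.58 to 0.58. Of the glia and neuron markers 6 were tested in each, with 2 lower against D(wg), elav (-1.47) and Gliotactin (Gli, -0.94), a median of 0.04 and a highest ratio of 0.15. Against V(wg) 0 were called by limma (0 at an unadjusted p under 0.05). Against D(wg), zfh1 lost its call without replicate 2, elav without replicate 1 or 2, and Gli in 5 of 7 alternatives, and against V(wg) zfh1 lost its call without replicate 1. Of the blood cell markers 2 were tested. The scavenger receptor gene crq was lower, at -1.34 over D(wg) and -0.90 over V(wg), and lost the second call with that comparison's own arrays alone (adjusted p = 0.0945). The GATA factor gene serpent (srp) lay at 0.35 and 0.19 and did not pass (limma, adjusted p = 0.138 and 0.365). Tracheal markers and larval fat body markers, with 4 and 2 tested in each comparison, had 0 called by limma in either direction on the probes that stand for their genes (2 against D(wg) and 1 against V(wg) at an unadjusted p under 0.05). Against D(wg), though, the tracheal markers lay between 0.13 and 0.97 with a median of 0.57, and the fat body genes at 0.35 and 0.49, all above 0, while the median of the myoblast markers was -0.41. Against V(wg) these medians were 0.20, 0.25 and -0.0090. On other probes the tracheal marker serp passed as higher over D(wg) (CG8747a 0.91 and CG8747b 0.65, limma, adjusted p = 0.0340 and 0.0116). Over V(wg) CG8747b passed too (0.44, limma, adjusted p = 0.0265), and CG8747a did not (0.74). The myoblast marker sns passed as lower over V(wg) on probe CG13754c (-0.31, limma, adjusted p = 0.0347), and its other tested probes did not pass there. The part of such cells in the Ama ratios was not tested. In wing over leg discs the myoblast marker Him was higher, at 1.06 ± 0.12, and the part of these cells in the Ama value there was not tested.

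The genes whose values ran most like those of Ama over the arrays had Pearson r between 0.83 and 0.84. They were ranked among 3624 named genes that shared at least 30 arrays with it, of which the median r was 0.04 and the central 95 percent lay between -0.68 and 0.75. The 8 highest were shv, which encodes a chaperone, hts, the adducin gene, JMJD6, wds, Art3, an arginine methyltransferase gene, RanGAP, a nuclear transport gene, pit, an RNA helicase gene, and nop5, of small nucleolar particles. All 8 had mean ratios above 0 in both TD comparisons, between 0.59 and 1.28, below Ama's. They were picked by r over arrays that include the TD arrays, where Ama is highest, so the sign of these means is no separate result. In wing over leg discs their means for the 3 leg segments lay between -0.34 and 0.32, where Ama was at 0.21 to 0.78. The 3 lowest were Sfxn1-3 (-0.90), CngA (-0.88) and elgi (-0.84).

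Over the 27 arrays with an Ama value outside the TD comparisons, Isha (0.87), Hrb98DE (0.83), Srp72 (0.83), caly (0.83), Prp8 (0.82) and Plap (0.82) ranked highest among 3500 genes. None of the 8 genes above was among these 6. In deviations from the mean of each comparison the named genes had r of -0.52 to 0.67 with Ama. The arrays share RNA pools and kinds of tissue.

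**Figure D5:**
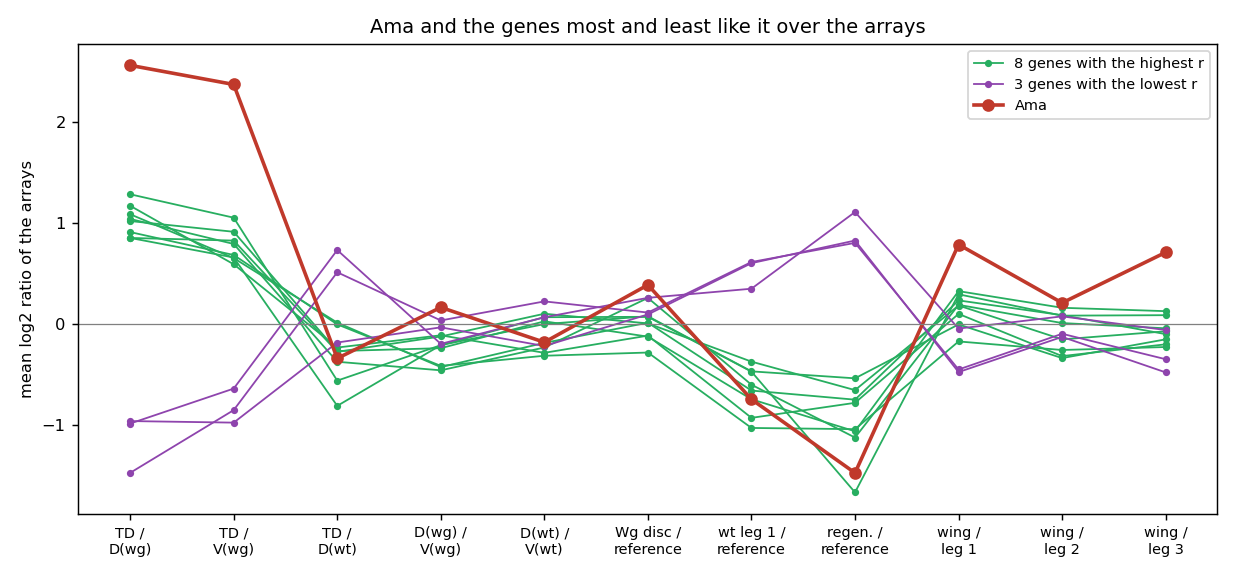
Mean log2 ratio of the arrays of each comparison (vertical axis) for Ama, the 8 genes with the highest and the 3 with the lowest Pearson r with it. Ama stands above the 8 most alike genes in both TD comparisons and against first and the third leg discs, where its means were 0.78 and 0.71.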

How the data were processed

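The deposited values are log2 ratios of probe 2 over probe 1, per the labels. The labels leave the base of the log open, and the authors' filtering and normalisation are not given in the sources used here. Base 2 was inferred, since values centre on 0 with a largest size of 17.08. Deposited medians lay between -0.11 and 0.21. Each array was turned to first-named over second-named sample by a change of sign, alike in both dye orientations, and centred on its median. Dye orientation was taken from the array descriptions, since the dye labels of the channels do not change between arrays. A wild-type leg array has another slide number in its description than in its title. No spot intensities were used, so signal over background is unknown. A RefSeq table of release 6 matched 12612 probes by current tag, 2720 through former tags and 34 by symbol, and left unnamed 486 with several genes and 509 without a match. A gene is represented by its probe with values on most arrays.

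All 39 arrays entered a joint least-squares fit with 11 comparison terms and a dye term, and variances were moderated by limma 3.58.1 (R 4.3.3, data.table, version 1.17.8). Tests were limited to probes with a value on no fewer than 66.7 percent, and 2, of the arrays of each kind. P-values are two-sided, adjusted by the Benjamini-Hochberg method over all probes tested, and called under 0.05. With 200 probes changed by known amounts, the fit was tested on simulated data. In D(wg) over V(wg) and D(wt) over V(wt) it recovered 10 and 11 percent of log2 changes of 0.5. Of changes of 1 it recovered 63 and 61 percent there. In wing over leg discs it recovered 61 percent of changes of 0.5 and 96 percent of changes of 1. False calls were 3.85 to 11.1 percent of calls, the most in D(wt) over V(wt). Plots were drawn with matplotlib 3.10.9 and tables made with pandas 2.3.3 and numpy 2.4.6 in Python 3.11.15.

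Ama and the gene lists were chosen with earlier results of these data known. Genes named besides Ama are measured members of the Antennapedia complex and Abl lists, the 3 immunoglobulin genes with the smallest p in a comparison, and the 8 highest, 3 lowest and, outside TD comparisons, 6 highest by Pearson r with Ama. The rule took 1 more gene of low r, which is not reported here. The other adhesion genes, dpr4 and the cell type markers given by name were picked after their values were seen. Protein and genome sequences were not used here. The closing section gives the effect of centring, scaling, the dye term, the arrays used and the filter.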

Additional observations from a re-analysis of the deposited data

Results flagged for a closer look

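A single array stood apart from the others of its group. Among the 6 arrays of Wg discs over the leg reference, Ama was at 1.04 on replicate 4, against 0.12 to 0.38 on the other 5. Its gap to the nearest of the others was 0.717 of the whole range, above Dixon's critical value of 0.625 for 6 samples, a test by which chance marks about 1 group in 20. It was the only array of the group on slide series 6. Without it the ratio of Ama was 0.25, and Ama did not pass the test with or without it.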

How the results depend on the processing

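Ama's ratios of 2.56 over D(wg) and 2.37 over V(wg) kept their direction and size in all alternatives that could be run, at 2.34 to 2.62 and 2.37 to 2.70, and at 2.33 to 2.71 and 2.22 to 2.497 with each array left out in turn. TD over D(wt) was -0.28 as deposited, -0.28 with the spread of arrays scaled, -0.51 with a dye term for each slide series and 0.33 with the sign turned. Wild-type leg discs over the reference no longer passed in limma with scaled spread (-0.58, adjusted p = 0.167), a dye term for each slide series (-0.54, adjusted p = 0.140) or the comparison's own arrays alone (-0.75, adjusted p = 0.1001), and lay at -1.17 to -0.60 with an array left out. Wg over wild-type leg discs did not pass in limma in the same settings (0.93, adjusted p = 0.146; 0.92, adjusted p = 0.0540; 1.13, adjusted p = 0.0531), with 0.99 to 1.55 with an array left out. Wing over leg did not pass in limma in slide series 5 (0.49) or 6 (0.74) or with wing as probe 1 (0.75, adjusted p = 0.0952) or probe 2 (0.30, adjusted p = 0.807) alone, and lay at 0.49 to 0.66 with an array left out. With scaled spread, regenerating fragments were at -0.86 over the reference and -0.28 over wild-type leg discs, Wg discs at 1.21 over them, and first over the third leg at 0.15, which is reversed. With an array left out, first over the third leg lay at -0.34 to 0.16, D(wg) over V(wg) at -0.16 to 0.43, D(wt) over V(wt) at -0.38 to 0.0505, the change of the dorsal over ventral ratio at 0.023 to 0.62 and regenerating fragments over wild-type leg discs at -0.87 to -0.31. The cause was not tested, apart from there being fewer arrays where some were left out. Ama kept its direction and side of the threshold in the other alternatives.

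The count of probes called moved by over 1.5 times in some settings. With scaled spread and with the comparison's own arrays it was 848 and 422, against 1412 in the fit used, for wild-type leg discs over the reference, 514 and 426 against 1579 for regenerating fragments over the reference, 165 and 223 against 50 for D(wt) over V(wt), 260 and 270 against 518 for Wg over wild-type leg discs, 116 and 177 against 755 for regenerating fragments over wild-type leg discs, 331 and 660 against 1046 for Wg discs over regenerating fragments and 54 and 15 against 8 for the change of the dorsal over ventral ratio. For D(wg) over V(wg) it was 9, 5 and, with no dye term, 11, against 25. For wing over leg it was 592 with scaled spread and 179 with a value on every array, against 288. Between leg segments it was 0 to 3, against 0 or 1.

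Nrt kept its call in TD over D(wg) in 7 of 7 and in TD over V(wg) in 9 of 9 alternatives, and in Wg discs over regenerating fragments in 14 of 14, which were chosen after seeing the data, as were the sign turned, the single dye orientations, the arrays of slide series 7 and 5 and those of series 5 alone. It lost its call in wild-type leg discs over the reference with that comparison's arrays alone, and in Wg over wild-type leg discs with scaled spread and with its arrays alone. Named genes' Spearman rho with Ama was -0.85 to 0.82. Ama has 1 probe, so a mean over its probes could not be run. No paired analysis was possible because the labels give no replicate numbers, and each array already pairs its 2 samples. Signal over background and the number of arrays limit all values.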
